A study of Noccaea goesingensis with 12 samples.

Results

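The change in root mRNA with nickel (Ni) was described for the metallicolous ecotype (TM) of *Noccaea goesingensis*, a plant of the cabbage family that takes Ni up into its shoots. The TM plants came from a serpentinite population, the non-metallicolous plants (NTM) from a dolomite population. Genes were chosen by their measured values, as those present in both deposited tables whose TM value with Ni differed from the TM value without Ni by at least 1 on the log2 scale, formed as log2((Ni + 1)/(control + 1)), and whose larger TM value was at least 10 FPKM (fragments per kilobase of gene model, scaled to library size). Of the 1131 genes present in both tables, 28 met this rule, 19 of them higher and 9 lower with Ni. The tables together list 5273 genes, and 893 of the 1131 had a larger TM value of at least 10 FPKM.

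Roots were sequenced as 12 libraries in 4 groups, which were TM Ni (2 libraries), TM control (4), NTM Ni (3) and NTM control (3). RNA of 5 plants was combined in each library. The Ni plants were treated for 3 weeks with Ni and the control plants were grown without it. These numbers come from the labels, while the methods state an equal number of samples for every group, and which holds was not settled. The labels describe a mine dump substrate mixed with sand, while the methods describe sand with perlite, and the labels give no Ni dose. Each ecotype stands for 1 population, so ecotype and population of origin cannot be told apart.

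Each group has 1 deposited value per gene, made from all its libraries, so no error between replicates and no test can be given for any gene, and the 2 Ni libraries weigh on the TM ratio as much as the 4 control libraries. No value per library and no read depth stands in the tables. Each table lists the genes for which the deposited comparison of TM with NTM gave an unadjusted p-value under 0.05, in one Ni state, so the 1131 genes are those listed as different between the ecotypes both with and without Ni. A gene whose TM level with Ni came to equal that of NTM may therefore be missing. The 2 tables were normalized separately. The column headers read TPM where the methods give FPKM, which was not settled, and the values are called FPKM here. The added 1 FPKM makes the log2 ratio of a low gene smaller than its plain fold. In bulk roots, a change in the share of a cell type and a change of mRNA per cell cannot be told apart.

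Serpentine soils are rich in Ni and poor in calcium, and plants that live on them either keep Ni out of the shoot or store it there, in hyperaccumulators mostly in the vacuoles of shoot cells. Roots of such plants take up Ni through carriers of other divalent metals, among them iron and zinc transporters, and pass it to the xylem. Reads were aligned to the genome of *Arabidopsis thaliana*, so each gene is given by its *A. thaliana* identifier (AGI code), which stands for the best aligned locus and not for a sequenced gene of *N. goesingensis*. The tables pair these identifiers with loci and not with gene names. None of the 28 identifiers is annotated in the sources used here, and no name or function is therefore given to them. The labelled tissue was not checked against marker genes.

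For the 1122 genes above 0 in both TM groups, the median TM log2 ratio was -0.01, with quartiles of -0.24 and 0.22 and a standard deviation across genes of 0.41. The NTM log2 ratios spread wider. For the 1124 genes above 0 in both NTM groups, their median was 0.05, with quartiles of -0.27 and 0.33 and a standard deviation of 0.56. The genes past the rule in TM made up 2.48% of the 1131 genes, 1.68% on the higher side and 0.796% on the lower side. By the same rule on the NTM values, 22 genes were higher with Ni (1.95%), 33 were lower (2.92%) and 55 differed in either direction (4.86%), or 52 with genes listed at 0 left out. At this threshold TM had more genes on the higher than on the lower side and NTM had more on the lower side, while at a threshold of 1.5-fold TM had 45 higher and 47 lower genes. Differences between the ecotypes in these counts were not tested.

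**Figure D1:**
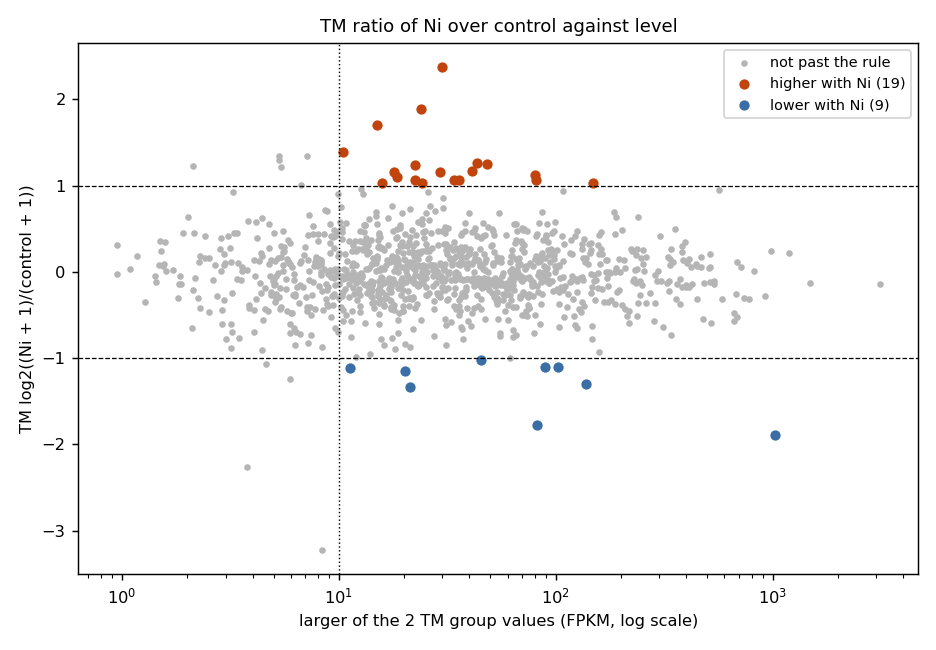
Each point is 1 of the 1124 genes with a TM value above 0. The horizontal axis gives the larger of the 2 TM group values in FPKM on a log scale, the vertical axis log2((Ni + 1)/(control + 1)) in TM, and the dashed and dotted lines mark the ratio of 1 and the floor of 10 FPKM. The 19 genes higher with Ni reach 2.38 and the 9 lower genes reach -1.89, and most lie close to the dashed lines.

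Most of the 28 genes differed by little more than the rule asks. The higher genes had a median log2 ratio of 1.16 and plain folds of 2.05 to 6.04 (Ni over control), and the lower genes a median log2 ratio of -1.15 and plain folds of 2.09 to 3.72 (control over Ni). A plain fold of at least 3 was reached by 4 higher and 2 lower genes. The higher genes had a median of 29.3 FPKM in TM Ni and 11.4 FPKM in TM control. The lower genes had a median of 23.2 FPKM in TM Ni and 81.8 FPKM in TM control. The rule itself sets the direction of these differences. Under a pseudocount of 5 FPKM, 15 of the 28 genes no longer passed, 12 higher and 3 lower ones (AT1G23140, AT2G48140 and AT5G38760), with log2 ratios of 0.77 to 0.99 and -0.91 to -0.75. By larger TM value, 6 of the 226 genes from 10 to 20 FPKM were past the rule (2.65%), 14 of the 288 from 20 to 50 FPKM (4.86%), 4 of the 189 from 50 to 100 FPKM (2.12%) and 4 of the 190 above (2.11%). Among the genes above 100 FPKM, 1 was higher and 3 were lower with Ni.

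The 3 genes with the highest ratios of Ni over control stood apart from the other higher genes. AT1G26160 (chromosome 1, 9044441 to 9046979, TAIR10) had 29.9 FPKM in TM Ni, against 4.95 FPKM in TM control, a log2 ratio of 2.38 and a plain fold of 6.04. AT1G73540 (chromosome 1, 27645658 to 27646698) had 24.0 FPKM in TM Ni, against 5.74 FPKM in TM control, a log2 ratio of 1.89. AT2G05070 (chromosome 2, 1799234 to 1800392) had 15.0 FPKM in TM Ni, against 3.91 FPKM in TM control, a log2 ratio of 1.70. Without Ni all 3 stood at 3.91 to 5.74 FPKM, and the number of reads behind these values is not in the tables. NTM did not share these ratios. The NTM values of AT1G26160 were 9.05 FPKM with Ni and 12.3 FPKM without, and those of AT1G73540 were 51.7 FPKM and 55.4 FPKM. For AT2G05070 the NTM values were 3.81 FPKM with Ni and 9.79 FPKM without, a log2 ratio of -1.17 in the other direction, below the floor of 10 FPKM.

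The 2 genes with the lowest ratios lie at short loci. AT4G16240 (chromosome 4, 9192336 to 9192568, 233 bp) had 276 FPKM in TM Ni, against 1028 FPKM in TM control, a log2 ratio of -1.89, and is listed at 0 in NTM Ni, against 207 FPKM in NTM control. A value listed at 0 at a locus of this length can be a failed estimate, so no NTM ratio is given for it. AT3G11120 (chromosome 3, 3481052 to 3481448, 397 bp) had 23.2 FPKM in TM Ni, against 81.8 FPKM in TM control, a log2 ratio of -1.77, while NTM stood at 229 FPKM with Ni and 211 FPKM without. These are the 2 loci under 500 bp among the 28 genes. That is 7.14% of the 28 genes, while 29 of the 1131 genes (2.56%) had a locus as short. Loci under 1000 bp numbered 10 of the 28 (35.7%) and 173 of the 1131 (15.3%). The median locus was 1268 bp for the 28 genes and 1927 bp for the 1131. Whether locus length plays a part in the ratios was not tested.

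**Figure D2:**
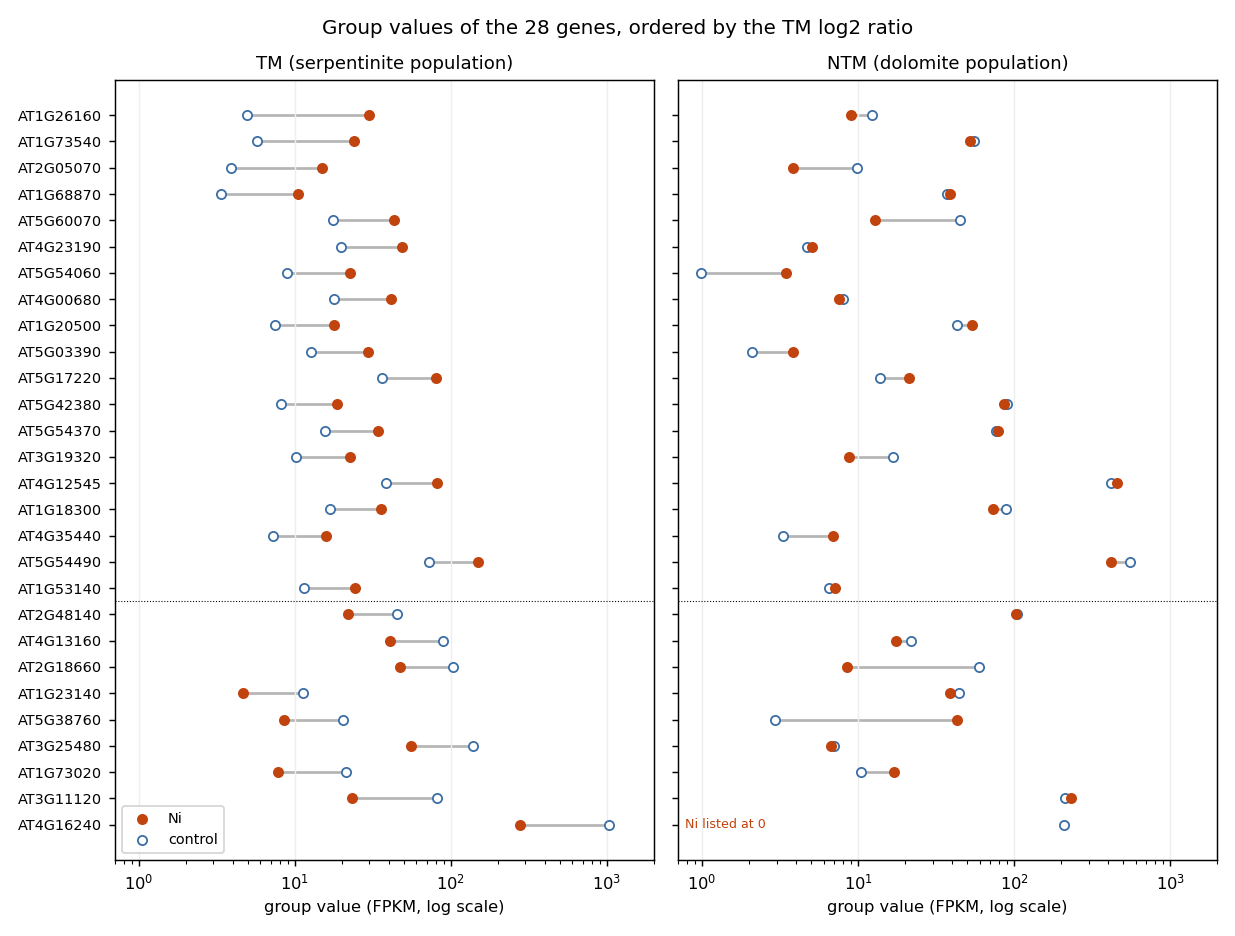
Rows are the 28 genes by AGI code, ordered by the TM log2 ratio, with the 19 higher genes above the dotted line and the 9 lower genes under it. Filled points are the group value with Ni and open points the group value without Ni, in FPKM on a log scale, at left for TM and at right for NTM, and a line joins them. The TM points are at least 2.05-fold apart in every row, while most NTM pairs lie close together, and AT5G38760 has the widest NTM pair drawn, with 42.9 FPKM with Ni and 2.93 FPKM without.

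The genes are grouped below by where TM stood against NTM, which uses the same TM values as the rule and is a description. Of the 19 higher genes, 8 stood below NTM both with and without Ni, 7 stood above NTM in both states, and 4 stood below NTM without Ni and above it with Ni. Of the 9 lower genes, 4 stood above NTM in both states, 3 below it in both, and 2 above it without Ni and below it with Ni. Over the 1131 genes, 431 stood above NTM in both states, 688 below it in both and 12 changed order. The order changed for 6 of the 28 genes (21.4%) and for 1.06% of the 1131. A change of order needs a large change in at least 1 ecotype, and the 28 genes were chosen for a large TM change. The higher share among them thus follows at least in part from the rule.

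The 8 higher genes with TM below NTM came nearer to the NTM level with Ni. Their median log2 ratio of TM over NTM was -1.50 with Ni, against -2.98 without Ni. Their NTM values changed little, with NTM log2 ratios of Ni over control from -0.39 to 0.30. Besides AT1G73540, AT1G68870 had 10.4 FPKM in TM Ni, against 3.35 FPKM in TM control, and AT5G42380 had 18.6 FPKM, against 8.13 FPKM. In NTM, AT1G68870 stood at 38.6 FPKM with Ni and 36.9 FPKM without, and AT5G42380 at 86.3 FPKM with Ni and 89.4 FPKM without. These pairs show TM levels that more than doubled beside NTM levels that hardly differed. AT1G20500 had 17.9 FPKM in TM Ni, against 7.45 FPKM in TM control, and AT1G18300 had 35.9 FPKM, against 16.7 FPKM. The NTM levels were 53.2 FPKM with Ni and 43.1 FPKM without for AT1G20500, and 73.0 FPKM with Ni and 88.9 FPKM without for AT1G18300. For both genes TM stayed below NTM.

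Among the other 3 genes of these 8, AT5G54490 and AT4G12545 had the highest TM Ni values of the 19 higher genes. AT5G54490 had 149 FPKM in TM Ni, against 72.9 FPKM in TM control, the highest TM levels of the 19, and NTM stood at 416 FPKM with Ni and 547 FPKM without. AT4G12545 had 81.1 FPKM in TM Ni, against 38.3 FPKM in TM control, and NTM stood at 455 FPKM with Ni and 419 FPKM without. AT5G54370 had 34.0 FPKM in TM Ni, against 15.7 FPKM in TM control, with 78.5 FPKM in NTM Ni and 75.9 FPKM in NTM control. AT5G54370 and AT5G54490 were the closest pair of the 28 genes, 44.6 kb apart on chromosome 5, and AT5G54060, a higher gene as well, lies 137 kb from AT5G54370. All 3 had TM log2 ratios between 1.03 and 1.24. No locus of the 28 overlaps another listed locus.

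The 7 higher genes with TM above NTM moved further from NTM with Ni. Their log2 ratio of TM over NTM ran from 1.10 to 3.03 with Ni, against 0.73 to 2.33 without. AT4G23190 had 48.4 FPKM in TM Ni, against 19.8 FPKM in TM control, and AT4G00680 had 41.3 FPKM, against 17.7 FPKM. Their NTM values hardly differed, with 5.04 FPKM in NTM Ni and 4.69 FPKM in NTM control for AT4G23190, and 7.55 FPKM in NTM Ni and 8.00 FPKM in NTM control for AT4G00680. AT1G53140 likewise had 24.2 FPKM in TM Ni, against 11.4 FPKM in TM control, beside 7.10 FPKM in NTM Ni and 6.48 FPKM in NTM control. In these 3 genes the level differed with Ni in TM and by under 1 FPKM in NTM.

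The other 4 of these 7 genes had higher values with Ni in NTM as well. AT5G17220 had 80.2 FPKM in TM Ni, against 36.4 FPKM in TM control, and 21.2 FPKM in NTM Ni, against 13.7 FPKM in NTM control. AT5G03390 had 29.3 FPKM in TM Ni, against 12.6 FPKM in TM control, and 3.84 FPKM in NTM Ni, against 2.08 FPKM in NTM control. Both had NTM log2 ratios, 0.60 and 0.65, under their TM log2 ratios of 1.12 and 1.16. AT5G54060 had 22.5 FPKM in TM Ni, against 8.94 FPKM in TM control, and 3.42 FPKM in NTM Ni, against 0.984 FPKM in NTM control. AT4G35440 had 15.9 FPKM in TM Ni, against 7.24 FPKM in TM control, and 6.88 FPKM in NTM Ni, against 3.28 FPKM in NTM control. For AT5G54060 the log2 ratios were 1.24 in TM and 1.16 in NTM, and for AT4G35440 1.03 in TM and 0.88 in NTM, the nearest pairs of ratios among the 28 genes.

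The 4 higher genes whose order changed were AT1G26160, AT2G05070, AT5G60070 and AT3G19320, and all had lower values with Ni in NTM. To be listed, such a gene had to differ between the ecotypes on opposite sides in the 2 Ni states. Those whose NTM level stayed steady may therefore be missing. AT5G60070 had 43.2 FPKM in TM Ni, against 17.5 FPKM in TM control, and 12.9 FPKM in NTM Ni, against 44.6 FPKM in NTM control. Its log2 ratios of 1.26 in TM and -1.71 in NTM both passed the rule, in opposite directions. AT3G19320 had 22.4 FPKM in TM Ni, against 10.2 FPKM in TM control, and 8.71 FPKM in NTM Ni, against 16.8 FPKM in NTM control.

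Of the 9 lower genes, the 4 with TM above NTM in both states held the highest levels. Besides AT4G16240, AT3G25480 had 55.6 FPKM in TM Ni, against 138 FPKM in TM control, where NTM stood at 6.67 FPKM with Ni and 6.99 FPKM without. The TM level of AT3G25480 was thus far above that of NTM with and without Ni, and the log2 ratio to NTM was 2.88 with Ni and 4.12 without. AT4G13160 had 40.9 FPKM in TM Ni, against 88.9 FPKM in TM control, and 17.4 FPKM in NTM Ni, against 21.7 FPKM in NTM control. AT2G18660 had 47.4 FPKM in TM Ni, against 103 FPKM in TM control, and 8.51 FPKM in NTM Ni, against 59.3 FPKM in NTM control. AT2G18660 was lower with Ni in both ecotypes by the rule, by a log2 ratio of -1.10 in TM and -2.66 in NTM.

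The 3 lower genes with TM below NTM moved away from the NTM level. Besides AT3G11120, AT2G48140 had 21.8 FPKM in TM Ni, against 45.4 FPKM in TM control, and AT1G23140 had 4.65 FPKM, against 11.3 FPKM. NTM held AT2G48140 at 102 FPKM with Ni and 105 FPKM without, and AT1G23140 at 38.6 FPKM with Ni and 44.3 FPKM without. All 3 had NTM log2 ratios between -0.19 and 0.12. AT2G48140 had the smallest ratio of the lower genes, -1.03, and was at -0.98 where the TM values of both tables were scaled to the same sum.

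The 2 lower genes whose order changed had higher values with Ni in NTM. To be listed, these genes too had to differ between the ecotypes on opposite sides in the 2 Ni states. AT5G38760 had 8.58 FPKM in TM Ni, against 20.2 FPKM in TM control, and 42.9 FPKM in NTM Ni, against 2.93 FPKM in NTM control. Its log2 ratios were -1.15 in TM and 3.48 in NTM, and both passed the rule. AT1G73020 had 7.84 FPKM in TM Ni, against 21.3 FPKM in TM control, and 17.0 FPKM in NTM Ni, against 10.4 FPKM in NTM control, a log2 ratio of -1.33 in TM and 0.66 in NTM.

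**Figure D3:**
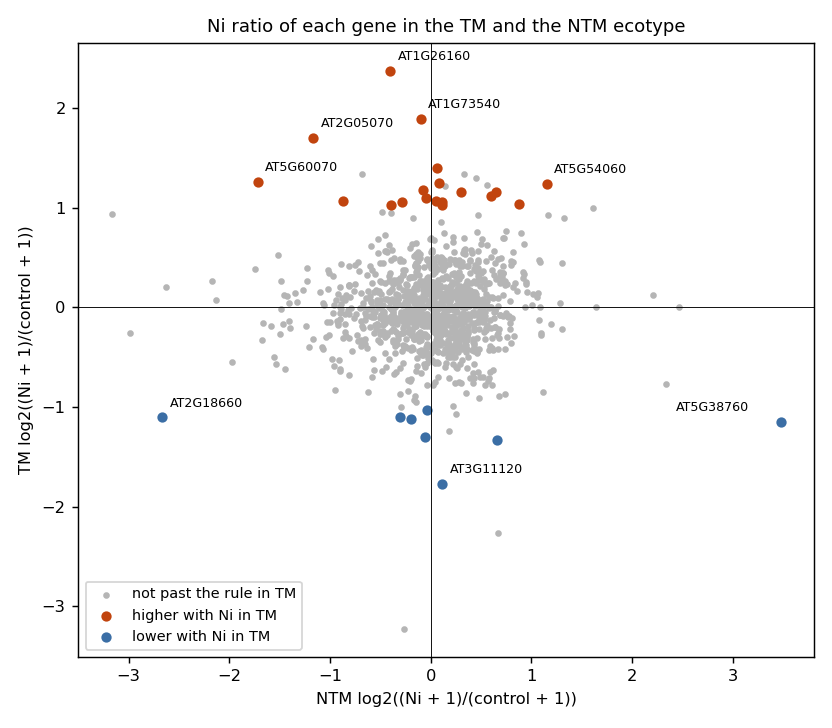
Each point is a gene with both NTM values above 0, placed by log2((Ni + 1)/(control + 1)), in NTM on the horizontal axis and in TM on the vertical axis. Coloured points are the genes past the rule in TM, without AT4G16240, which is listed at 0 in NTM Ni. Most coloured points lie near 0 on the horizontal axis, and AT5G38760 lies at 3.48 and AT5G60070 at -1.71.

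The ratio rule used no NTM values. However, every gene had to be listed as different between TM and NTM in both Ni states, so NTM values entered the choice. Each table was also normalized over both ecotypes, and the NTM shares below are a description. Of the 28 genes, 17 had an NTM log2 ratio within 0.5 of 0 (60.7%), compared with 811 of the 1131 genes (71.7%). The NTM ratio had the sign of the TM ratio in 15 of the 28 genes (53.6%), 10 of the 19 higher and 5 of the 9 lower genes, and in 579 of the 1131 genes (51.2%), a like share. Genes without an NTM ratio stay in these totals and count toward neither share. They are AT4G16240 of the 28 genes and, of the 1131, the 7 genes with an NTM value at 0. The median NTM log2 ratio was 0.05 for the higher genes and -0.05 for the lower genes, beside 0.05 over all genes with both NTM values above 0. In NTM, with genes listed at 0 left out, 3 of the 28 genes passed the rule (10.7%, against 4.60% of the 1131), which were AT2G18660, lower in both ecotypes, and AT5G38760 and AT5G60070, in opposite directions. Counting AT4G16240 at its listed 0, 4 of the 28 passed (14.3%, against 4.86%). With 1 value a group, whether the Ni change of a gene differs between the ecotypes was not tested.

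The genes lay on all 5 nuclear chromosomes, 8 of 299 listed genes on chromosome 1, 3 of 179 on chromosome 2, 3 of 201 on chromosome 3, 6 of 173 on chromosome 4 and 8 of 278 on chromosome 5. The share ran from 1.49% on chromosome 3 to 3.47% on chromosome 4. The 1 mitochondrial gene in both tables was not among them.

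Several genes lay close to the limits of the rule. Just inside the ratio were AT1G53140 (1.02) and AT5G54490 (1.03) among the higher and AT2G48140 (-1.03) and AT4G13160 (-1.10) among the lower genes. Just outside it were AT2G27970 (0.96), with 12.7 FPKM in TM Ni and 6.04 FPKM in TM control, and AT5G23950 (0.95), with 565 FPKM in TM Ni and 292 FPKM in TM control. On the lower side AT1G68725 (-0.999) and AT2G26560 (-0.99) were just outside, with 30.2 and 5.58 FPKM in TM Ni and 61.3 and 12.0 FPKM in TM control in the same order. The lowest larger values inside the floor were 10.4 FPKM (AT1G68870) and 11.3 FPKM (AT1G23140). Under the floor, 10 more genes had a ratio of at least 1, 6 higher and 4 lower. The nearest were AT3G21352, at 8.35 FPKM in TM control and listed at 0 in TM Ni, and AT5G37050, at 7.13 FPKM in TM Ni and 2.21 FPKM in TM control.

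The study names 29 genes with an *A. thaliana* identifier, for metal transport, stress, ethylene and transcription factors. Of these, 17 were listed in 1 table, 11 in neither and 1 in both, so a TM ratio can be formed for 1 gene. This was *ERF5* (AT5G47230), an ethylene-responsive transcription factor. In TM it had 82.1 FPKM with Ni and 60.1 FPKM without, a log2 ratio of 0.44, which is not past the rule. In NTM *ERF5* had 22.1 FPKM with Ni and 8.35 FPKM without, a log2 ratio of 1.30, past the rule on the higher side. The paper reports *ERF5* as up-regulated with Ni in NTM. Of the 1131 genes, it held rank 126 by the TM ratio from the highest. The change with Ni in TM of the metal transporters that the study names cannot be formed from these tables, which says nothing of whether they changed. From its own comparison, the paper reports *IRT1*, *IRT2*, *ZIP10* and *MTP8* as higher and *COPT4* as lower with Ni in TM. Other metal transporters were not looked up.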

How the data were processed

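Per the labels and methods, the authors trimmed reads with cutadapt 1.8.1, aligned them with HISAT2 2.1.0 to the *A. thaliana* genome (TAIR10) and ran Cuffdiff of Cufflinks 2.2.1, with geometric scaling. The authors deposited FPKM (headed TPM) as 1 value per group. They also deposited a fold change and an unadjusted p-value of TM against NTM. Neither entered a ratio, but the listed genes are those under the p-value limit. All genes of both tables (4460 without Ni, 1944 with Ni) were under 0.05. Values of the group files and of the comparison tables were identical (0 differed). The 8 columns of values each belonged to a labelled group. Starts are printed counting from 1.

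From these values log2((Ni + 1)/(control + 1)) was computed for the 1131 shared genes. Every gene past the rule is named. Genes, lists and the rule were chosen with earlier results of these data known. Alternatives were another pseudocount (0.1 or 5 FPKM), floor (none or 20 FPKM), threshold (1.5-fold or 2), scaling (median or sum), loci under 500 bp left out, and TM values under 1 FPKM left out. Functional classes by annotation keyword were planned and not run, because no annotation was given. Lists of metal, ethylene and tissue marker genes, planned by identifier, were not run either. The *A. thaliana* identifiers in the paper served instead. The rule was tested on simulated data, with planted changes larger than most genes past the rule showed. The simulated spread between genes was also smaller than in these data (standard deviation 0.41 in TM). The simulation therefore gives no rate of false calls for these data. Depth per library is unknown from the tables. Python 3.11.15, numpy 2.4.6, pandas 2.3.3 and matplotlib 3.10.9 were used.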

Additional observations from a re-analysis of the deposited data

Results flagged for a closer look

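For 2 genes the Ni ratio passed the rule in both ecotypes in opposite directions. The log2 ratio of AT5G60070 was 1.26 in TM and -1.71 in NTM, a difference of TM minus NTM of 2.97. The log2 ratio of AT5G38760 was -1.15 in TM and 3.48 in NTM, a difference of TM minus NTM of -4.63. Both genes changed order between the ecotypes. To be listed, such a gene had to differ between TM and NTM on opposite sides in the 2 Ni states. The choice of listed genes thus favours opposite movement in NTM, and its part in these differences was not tested. With 1 value a group, neither difference was tested, and both tables' scaling enters all 4 ratios.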

How the results depend on the processing

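The counts depended most on the threshold, as a changed threshold must move them. At 1.5-fold, 45 genes were higher and 47 lower with Ni in TM, and at 2 on the log2 scale 1 gene (AT1G26160) was higher and 0 were lower, compared with 19 and 9. With 5 FPKM added, 7 genes were higher and 6 lower, all among the 28, because the larger pseudocount shrinks the ratios of low genes. The other alternatives gave 14 to 25 higher and 7 to 13 lower genes. Scaling to the same sum gave 21 higher and 8 lower genes. Centring on the median kept all 28. In NTM, under each pseudocount and scaling, 3 of the 28 genes passed with genes listed at 0 left out and 4 with AT4G16240 counted at its listed 0. These settings were added after the data were seen. The median TM ratio stayed within 0.1 of its value under the alternatives of pseudocount, floor, sum scaling, short loci and low values. No replicate could be left out in turn. No paired analysis was possible because the tables hold 1 value per group and no value per library.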
